A study of Saccharomyces cerevisiae W303 with 9 samples.

Results

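Budding yeast that lacks AIM29 and carries a construct for high ZPR1 was compared with wild-type yeast by RNA-seq of poly(A) RNA. The members are the 3 libraries of the construct strain (ZPR1OE), which were set against the 3 wild-type libraries (WT), so 6 of the 9 libraries of the series enter the comparison. Both groups were chosen by the labels and not by any measured value. The remaining 3 libraries, of the aim29 deletion without the construct (aim29_del in the plots), serve to tell what stays different from WT with high ZPR1 from what becomes different. All strains are of the W303 laboratory background. The ZPR1OE genotype is the aim29 deletion plus pmTDH3-ZPR1, and the labels do not spell out the letters pm. AIM29 is missing in ZPR1OE and in the aim29 deletion alike, and a strain with the construct and an intact AIM29 gene was not analysed here. Cells of 3 isolates of each strain were grown in the rich glucose medium YPD to mid-log phase. The labels do not say how the isolates of a strain are related, so p-values measure the spread between these isolates.

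Zpr1 is a zinc finger protein that binds newly made eEF1A, the GTPase that brings aminoacyl-tRNA to the ribosome and one of the most abundant proteins of the cell, and helps it to fold. Aim29 is a small protein that has been described as a partner of Zpr1 in this task. Cells that fail to fold an abundant protein are known to raise chaperone genes through the heat shock factor Hsf1, and disturbed translation is known to raise amino acid synthesis genes through the transcription factor Gcn4.

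Total counts were 18044486, 20140071 and 18793582 in ZPR1OE replicates 1, 2 and 3, between 14380639 and 14586083 in the aim29 deletion and between 15601784 and 17140665 in WT. At this depth 3 counts correspond to 0.143 to 0.213 CPM, the counts scaled to library size with TMM factors. Between isolates of 1 strain the biological coefficient of variation came to 14.7% in ZPR1OE, 3.75% in the aim29 deletion and 5.22% in WT. Without ZPR1OE replicate 3 it was 10.03%, without replicate 2 it was 15.6% and without replicate 1 it was 17.0%. ZPR1OE replicate 3 thus stood apart, and results that rest on it are given with and without it. STE2, the alpha-factor receptor gene that marks a cells, lay between 490.0 and 703 CPM in all 9 libraries, and STE3, its counterpart of alpha cells, at 3.05 CPM or less.

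With high ZPR1 and no AIM29, 4 of 5955 genes tested differed from WT. They were ZPR1 itself, AIM29, and both annotated genes that flank AIM29 most closely: the lysine tRNA gene tK(UUU)K and the uncharacterised gene YKR075C, which RefSeq describes as regulated by glucose. No gene away from the engineered loci passed the test, although 479 genes had an unadjusted p under 0.05. ZPR1 (YGR211W, at chrVII:915241-916701 in build R64, the build used throughout, plus strand) was at 5645, 4856 and 5640 CPM in ZPR1OE, 445, 399.5 and 421 CPM in the aim29 deletion and 329, 322 and 337 CPM in WT. Every ZPR1OE library lay far above every other library, and the aim29 deletion lay slightly above WT. ZPR1 was 16.3-fold higher than in WT (log2 fold change 4.03 ± 0.09, SE, n = 3 each, edgeR quasi-likelihood test, Benjamini-Hochberg adjusted p = 3.07e-07) and made up 0.538% of the ZPR1OE reads. Reads of the construct and of the chromosomal copy of ZPR1 cannot be told apart in gene counts.

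AIM29 (YKR074W, at chrXI:579209-579676, plus strand) was at 7.46, 7.05 and 5.17 CPM in ZPR1OE, 0.782, 3.87 and 3.63 CPM in the aim29 deletion and 76.0, 82.2 and 76.9 CPM in WT. The strains that lack the gene did not overlap with WT, which fits their labels. In ZPR1OE the level was 8.37% of that of WT (log2 fold change −3.58 ± 0.13, adjusted p = 1.28e-05 by edgeR). ZPR1OE and the aim29 deletion did not differ in AIM29 at the threshold (1.24 ± 0.44, adjusted p = 0.21 by edgeR), although their values did not overlap. The source of the remaining reads was not tested.

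tK(UUU)K encodes a tRNA that reads lysine codons, and such RNAs are made by RNA polymerase III without a poly(A) tail. It had 112, 167 and 87 counts in ZPR1OE, 91, 134 and 137 counts in the aim29 deletion and 0, 1 and 3 counts in WT. Scaled to library size, ZPR1OE was 79.2-fold above WT (exact binomial 95% interval 30.7 to 292, which covers counting error only). The edgeR log2 fold change was 6.17 ± 0.52 with an adjusted p of 0.00461, and it depends on the prior count since WT is close to 0. Of the 47 windows of 50 bases in this gene 0 occur once in the genome, so its reads could belong to any near-identical copy, and their source was not tested. The other 21 lysine tRNA genes in the table had at most 48 counts in a library. YKR075C (chrXI:579827-580750, minus strand) was at 13.8, 17.1 and 14.5 CPM in ZPR1OE, 11.9, 12.2 and 12.6 CPM in the aim29 deletion and 6.01, 6.25 and 6.28 CPM in WT. All ZPR1OE libraries exceeded all WT libraries (log2 fold change 1.29 ± 0.13, adjusted p = 0.0112 by edgeR).

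**Figure D1:**
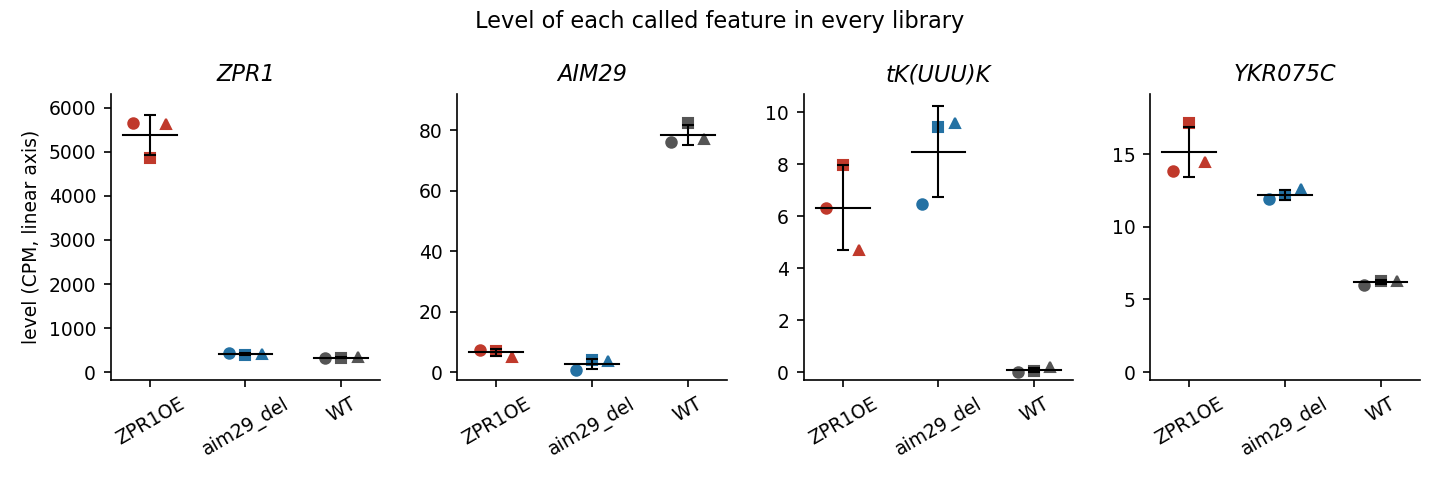
Level in CPM, on linear axes, of the 4 called features in every library of ZPR1OE, the aim29 deletion (aim29_del) and WT, with replicate 1 as circles, 2 as squares and 3 as triangles, and the mean and SD of 3 libraries in black. ZPR1 stands apart in ZPR1OE alone, while AIM29, tK(UUU)K and YKR075C have ZPR1OE and the aim29 deletion together on one side of WT.

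The sequences below show what lies at these loci. The AIM29 window holds the 250 bases before the start codon and the first 50 coding bases at chrXI:578959-579258 on the plus strand, with the 2 exons of tK(UUU)K in capitals around an intron of 23 bases. The tRNA gene (chromosome XI, 578965 to 579060, plus strand) ends 148 bases before AIM29 starts, so the tRNA gene stands inside the region upstream of AIM29. The ZPR1, HSP82 and STI1 windows, cut in the same way, are shown because the Hsf1 targets had the highest median of the gene lists in the aim29 deletion, and the ZPR1 window holds the same element. They lie at chrVII:914991-915290 on the plus strand, chrXVI:98576-98875 on the minus strand and chrXV:380803-381102 on the plus strand. Capitals there mark heat shock elements, searched as GAANNTTC and TTCNNGAA, each of which reads the same on both strands. All sequences are from RefSeq, build R64.
AIM29 upstream window: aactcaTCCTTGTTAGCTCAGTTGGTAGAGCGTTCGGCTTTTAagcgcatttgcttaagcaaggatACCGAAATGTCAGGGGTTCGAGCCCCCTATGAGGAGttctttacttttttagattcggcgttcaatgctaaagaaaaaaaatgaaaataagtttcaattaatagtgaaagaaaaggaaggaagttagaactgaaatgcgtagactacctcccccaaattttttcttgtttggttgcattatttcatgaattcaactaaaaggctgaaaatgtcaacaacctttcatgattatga
ZPR1 upstream window: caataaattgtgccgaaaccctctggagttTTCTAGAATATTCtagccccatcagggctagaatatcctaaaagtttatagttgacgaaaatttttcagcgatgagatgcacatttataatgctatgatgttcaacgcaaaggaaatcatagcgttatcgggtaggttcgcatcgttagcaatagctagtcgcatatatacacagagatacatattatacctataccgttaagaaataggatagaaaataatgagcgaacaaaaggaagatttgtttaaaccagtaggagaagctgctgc
HSP82 upstream window: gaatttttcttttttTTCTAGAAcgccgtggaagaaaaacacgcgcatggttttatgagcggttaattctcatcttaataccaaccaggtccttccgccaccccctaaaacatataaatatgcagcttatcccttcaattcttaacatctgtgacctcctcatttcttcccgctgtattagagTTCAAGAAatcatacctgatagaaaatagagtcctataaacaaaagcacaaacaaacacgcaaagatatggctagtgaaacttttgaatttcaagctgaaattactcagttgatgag
STI1 upstream window: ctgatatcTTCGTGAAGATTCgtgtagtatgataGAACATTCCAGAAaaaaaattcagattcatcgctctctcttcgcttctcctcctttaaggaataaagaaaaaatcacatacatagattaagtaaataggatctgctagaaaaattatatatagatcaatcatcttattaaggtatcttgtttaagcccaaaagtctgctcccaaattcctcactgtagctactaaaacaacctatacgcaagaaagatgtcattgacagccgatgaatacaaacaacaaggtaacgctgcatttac
The ZPR1 window holds 2 matches, which overlap, the HSP82 window 2 and the STI1 window 4. Over the same window of all genes, 22.6% of 6020 held at least 1 of these elements, and 17 of 24 genes on a list of Hsf1 targets did. A match describes letters only and shows no binding.

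By edgeR's quasi-likelihood test at an adjusted p under 0.05, 0.0672% of the genes tested were called between ZPR1OE and WT, 3 higher (0.0504%) and 1 lower (0.0168%). In the aim29 deletion against WT, fitted in the same way on its own 6 libraries, 837 of 5929 genes were higher (14.1%) and 751 lower (12.7%), 26.8% in all. In ZPR1OE against the aim29 deletion 30 of 5948 genes were higher (0.504%) and 123 lower (2.07%), 2.57% in all. These comparisons share libraries, so the counts are set side by side and are not independent. All 4 genes called in ZPR1OE were also called in the aim29 deletion in the same direction, ZPR1 by a far smaller amount there (log2 fold change 0.36 ± 0.04). Thus 3 genes stayed higher and 1 stayed lower. Genes that became different were counted as those called in ZPR1OE against both WT and the aim29 deletion in 1 direction and not called in the aim29 deletion against WT. There were 0 of them by edgeR, 4 higher and 1 lower by DESeq2. In 975 genes (16.4%) the ZPR1OE and WT values did not overlap.

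The count depends on the spread of the ZPR1OE libraries as well as on the size of the differences. The 95% interval of the log2 fold change had a median half-width of 0.22 in ZPR1OE against WT and 0.13 in the aim29 deletion against WT. In 81.3% of genes (4841) the ZPR1OE interval lay within 1.5-fold of WT in both directions, and in 93.6% (5575) within 2-fold. For most genes a 2-fold difference was therefore outside the interval, while smaller ones were not detectable in many. ZPR1 and AIM29 were called whichever single library was left out. tK(UUU)K was not called without WT replicate 2, and YKR075C was not called without any 1 of the WT replicates, where the fit rests on a pair of WT libraries. DESeq2 called 15 genes higher and 8 lower, all 4 above among them.

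**Figure D2:**
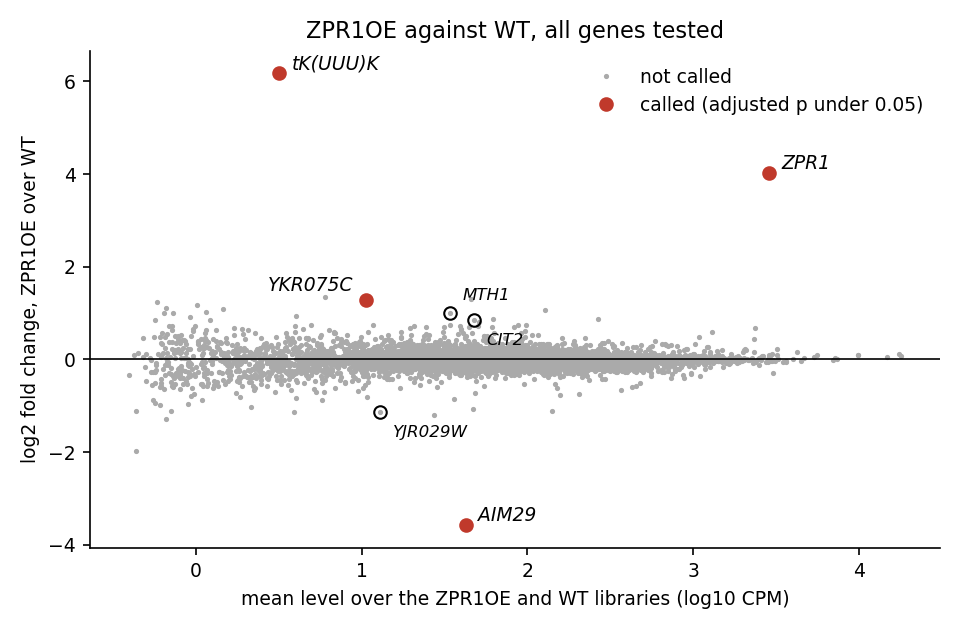
Log2 fold change of ZPR1OE over WT against the mean level (log10 CPM) for the 5955 genes tested, with the 4 called genes in red. Open circles mark MTH1, CIT2 and YJR029W, the next genes by p, whose adjusted p was 0.0741.

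Among 18 genes around AIM29, the 3 called between ZPR1OE and WT were AIM29 and its closest neighbours. Together they span 1786 bases, and the nearer end of YKR075C lies 150 bases past the end of AIM29, on the opposite strand. YKR073C, a small reading frame upstream of the tRNA gene, was at 2.77, 2.05 and 2.15 CPM in ZPR1OE and 0.916, 2.02 and 1.48 CPM in WT, with values that do not overlap but did not pass the test (0.66 ± 0.32, adjusted p = 0.623 by edgeR). In the aim29 deletion it was at 3.63, 2.46 and 2.80 CPM and was called higher than in WT (1.02 ± 0.29, adjusted p = 0.0135). The next genes, SIS2 and ECM4, had log2 fold changes of −0.02 ± 0.11 and 0.20 ± 0.33, and the sign turned for SIS2 without ZPR1OE replicate 2, for ECM4 without replicate 3, and for both with sample quality weights. ECM4 was at 40.3 CPM in ZPR1OE replicate 3, against 17.6 and 15.7 CPM in the other ZPR1OE libraries and 20.4 to 22.5 CPM in WT. Around ZPR1, YGR210C starts 502 bases away on the opposite strand and points away from ZPR1. It was at 163, 223 and 166 CPM in ZPR1OE, 259, 243 and 251 CPM in the aim29 deletion and 243, 235 and 244 CPM in WT, so each ZPR1OE library was below all others (−0.39 ± 0.12, adjusted p = 0.598). It was called without ZPR1OE replicate 2. SLI1, 338 bases past the end of ZPR1, had a log2 fold change of −0.42 ± 0.18 (adjusted p = 0.609) with groups that overlap.

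**Figure D3:**
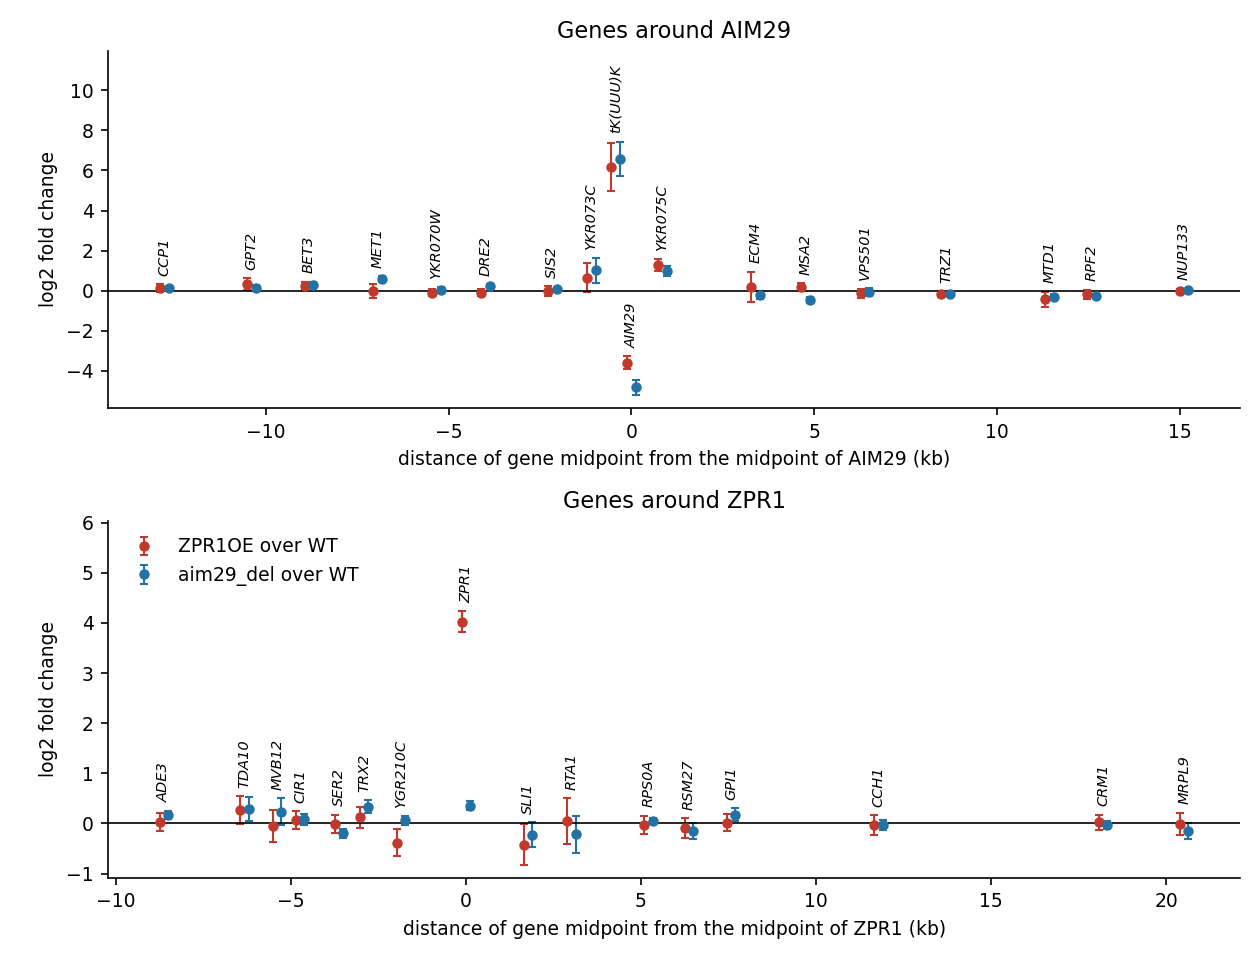
Log2 fold change with its 95% interval for genes around AIM29 (top) and ZPR1 (bottom), by distance of gene midpoints in kb, for ZPR1OE over WT (red) and the aim29 deletion over WT (blue). AIM29, tK(UUU)K and YKR075C have the points farthest from 0 in ZPR1OE around AIM29, and ZPR1, at 4.03 on the log2 scale, has the point farthest from 0 in ZPR1OE around its own locus.

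The product that Zpr1 folds is encoded by TEF1 and TEF2, and the intervals of their fold changes lay close around 0. TEF1 was at 5452, 5307 and 5454 CPM in ZPR1OE, 5043, 4869 and 4906 CPM in the aim29 deletion and 5470, 5086 and 5100 CPM in WT, with a ZPR1OE to WT log2 fold change of 0.05 and a 95% interval of −0.10 to 0.20. TEF2 was at 5654, 5584 and 6086 CPM in ZPR1OE and 5705, 5229 and 5304 CPM in WT (0.09, interval −0.07 to 0.26). The pair shares most of its sequence, with 7.53% of 50-base windows unique, so the split of reads between them is uncertain. TDH3, the glycolytic gene named in the construct, was at 18424, 16774 and 19156 CPM in ZPR1OE and 16540, 16865 and 16512 CPM in WT, which overlap (0.12 ± 0.08, adjusted p = 0.667). On a list of 11 genes for eEF1A, its methyltransferases and other partners, 1 gene (ZPR1) was called higher and 1 (AIM29) lower, and no other had an unadjusted p under 0.05 in edgeR's test.

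The next genes by p did not pass the test, with adjusted p of 0.0741 each. They were 2 genes of carbon metabolism and a reading frame of a retrotransposon. MTH1, a repressor of hexose transporter genes that acts when glucose is scarce, was at 37.8, 45.0 and 54.3 CPM in ZPR1OE, 41.0, 38.3 and 39.9 CPM in the aim29 deletion and 20.8, 24.2 and 23.3 CPM in WT. Both strains without AIM29 lay above WT in every library (ZPR1OE 1.01 ± 0.14, aim29 deletion 0.80 ± 0.08 with adjusted p = 3.4e-07). CIT2, the peroxisomal citrate synthase known as a marker of signalling from mitochondria to the nucleus, was at 71.1, 55.6 and 56.3 CPM in ZPR1OE, 40.8, 32.4 and 40.7 CPM in the aim29 deletion and 34.7, 36.0 and 30.9 CPM in WT. Here ZPR1OE stood above both other groups, by 0.85 ± 0.12 over WT and by 0.69 ± 0.13 over the aim29 deletion, where edgeR gave an adjusted p of 0.0328. Both MTH1 and CIT2 were called without ZPR1OE replicate 3, with all 9 samples in 1 fit, by DESeq2 and by limma-voom with sample quality weights. MTH1 was also called without ZPR1OE replicate 1. Neither was called by limma-voom without weights, without ZPR1OE replicate 2 or without any 1 of the WT replicates. YJR029W, a Gag-Pol reading frame of a Ty retrotransposon, was at 8.42, 7.67 and 8.29 CPM in ZPR1OE, 8.32, 8.16 and 6.71 CPM in the aim29 deletion and 20.6, 14.2 and 18.8 CPM in WT, but no 50-base window of it is unique in the genome.

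GPD1 was named after its values were seen, because DESeq2, limma-voom with sample quality weights and the edgeR fit of all 9 samples called it. It makes glycerol 3-phosphate for glycerol synthesis and was at 46.1, 53.9 and 46.9 CPM in ZPR1OE, 44.3, 47.8 and 42.8 CPM in the aim29 deletion and 31.3, 35.3 and 32.8 CPM in WT (0.56 ± 0.09, adjusted p = 0.171 by edgeR). MET6, the methionine synthase, was at 296, 363 and 369 CPM in ZPR1OE, 456, 502 and 468 CPM in the aim29 deletion and 462, 499 and 581 CPM in WT (−0.59 ± 0.11, adjusted p = 0.362 by edgeR). DESeq2 and limma-voom with sample quality weights called MET6 lower than WT, but the edgeR fit of all 9 samples did not. GPD1 values of both strains without AIM29 lay above WT, whereas MET6 was low in ZPR1OE alone and passed the test against the aim29 deletion (−0.47 ± 0.09, adjusted p = 0.0434). PCL1, a G1 cyclin that partners the kinase Pho85, was at 79.3, 74.7 and 80.9 CPM in ZPR1OE, 46.2, 49.9 and 52.9 CPM in the aim29 deletion and 64.5, 62.7 and 60.3 CPM in WT. ZPR1OE lay above WT (0.32 ± 0.07, adjusted p = 0.379) and the aim29 deletion below it (−0.33 ± 0.06, adjusted p = 0.000663).

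Genes with large rises in the aim29 deletion had a median near WT in ZPR1OE, while those with large falls had a median of −0.31. Of the genes tested, 43 were called and at least 2-fold higher in the aim29 deletion. Of these 43, 34 were called lower in ZPR1OE than in the deletion, beside 2.07% of all genes. Only 1, the tRNA gene, was called higher than in WT. The 43 genes were picked by the same deletion libraries that serve in this comparison. A fall from the deletion was favoured by that choice, so the count is a description. Their median log2 fold change against WT was 0.06 in ZPR1OE and 1.21 in the aim29 deletion. In 35 of the 43 the ZPR1OE interval lay wholly under 2-fold above WT. BSC5, whose function is not settled, was at 8.37, 8.86 and 8.02 CPM in ZPR1OE, 42.5, 45.2 and 41.2 CPM in the aim29 deletion and 9.79, 8.53 and 8.80 CPM in WT. ARO5 was at 30.6, 14.1 and 27.0 CPM in ZPR1OE, 145, 148 and 145 CPM in the aim29 deletion and 22.7, 20.8 and 19.8 CPM in WT. Both overlapped with WT in ZPR1OE, with log2 fold changes of −0.10 ± 0.12 (BSC5) and 0.17 ± 0.25 (ARO5), the second of which was negative without ZPR1OE replicate 1.

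SPO24, a gene of sporulation, was an exception in size among these genes, at 176, 99.2 and 243 CPM in ZPR1OE, 297, 312 and 321 CPM in the aim29 deletion and 70.6, 104 and 72.2 CPM in WT. Its ZPR1OE values straddled the highest WT value, and the log2 fold change of 1.07 ± 0.30 had an adjusted p of 0.598. Of the 12 genes tested that were at least 2-fold lower in the aim29 deletion, 1, AIM29, was called lower in ZPR1OE and 1, the zinc transporter gene ZRT1, was called higher in ZPR1OE than in the deletion. The median over the 12 was −0.31 in ZPR1OE against WT and −1.14 in the aim29 deletion. In 6 of the 12 the ZPR1OE interval lay wholly above a 2-fold fall from WT. These genes were likewise picked by the deletion libraries. PHO5, a secreted acid phosphatase, was at 341, 189 and 565 CPM in ZPR1OE, 249, 229 and 243 CPM in the aim29 deletion and 565, 554 and 505 CPM in WT, so the ZPR1OE libraries ran from below the aim29 deletion to the top of WT.

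Hsf1 targets were slightly above WT in ZPR1OE, without any call. Of 24 genes 23 were called higher in the aim29 deletion than in WT, beside 14.1% of all genes. In ZPR1OE 19 were called lower than in the deletion, beside 2.07% of all genes, while 0 were called between ZPR1OE and WT. In that comparison 23 of 24 had positive log2 fold changes, with a median of 0.21 beside 0.01 over all genes tested and 0.93 for the list in the aim29 deletion. At an unadjusted p under 0.05, 10 of 24 were higher and 0 lower, where 3.69% of all genes tested were higher and 4.35% lower. Leaving out ZPR1OE replicate 1, 2 or 3 gave 13, 6 and 11 members higher and 0 lower. Over all genes these fits gave 6.18%, 5.72% and 4.72% higher and 6.91%, 6.7% and 5.98% lower. The library medians were 0.04, 0.26 and 0.21 in ZPR1OE replicates 1, 2 and 3. STI1, an Hsp90 co-chaperone, was at 578, 676 and 608 CPM in ZPR1OE, 1154, 1118 and 1095 CPM in the aim29 deletion and 499.8, 529.7 and 502 CPM in WT (0.28 ± 0.07, adjusted p = 0.598). HSP82, an Hsp90, was at 188, 350.1 and 234 CPM in ZPR1OE, 722, 816 and 724 CPM in the aim29 deletion and 168, 207 and 182 CPM in WT (0.47 ± 0.21, adjusted p = 0.618). STI1 was above WT in every ZPR1OE library, while HSP82 of replicate 1 lay within the WT range. Without replicate 2 the log2 fold change of HSP82 was 0.18. BTN2, which sorts misfolded proteins, was at 37.6, 66.1 and 41.6 CPM in ZPR1OE, 114, 113 and 112 CPM in the aim29 deletion and 29.7, 31.6 and 30.5 CPM in WT (0.66 ± 0.20, adjusted p = 0.598), or 0.37 without replicate 2. Of 36 other chaperone genes 16 were above 0 and 20 below, with a median of −0.01.

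Gcn4-controlled amino acid synthesis genes were on average at the WT level, but not in each library. Of 55 genes 50 were called higher in the aim29 deletion (median 0.60), beside 14.1% of all genes. In ZPR1OE 35 were called lower than in the deletion, beside 2.07% of all genes. Between ZPR1OE and WT 0 were called and 0 had an unadjusted p under 0.05, with a median of 0.00. The library medians were 0.13, −0.21 and −0.00 in ZPR1OE replicates 1, 2 and 3. The arginine gene ARG1 showed a wide spread, at 207, 51.4 and 79.9 CPM in ZPR1OE, 321, 299 and 297 CPM in the aim29 deletion and 139, 95.9 and 89.5 CPM in WT. Without ZPR1OE replicate 1, 12 of the 55 were lower at an unadjusted p under 0.05 and 0 higher, beside 6.91% of all genes lower in that fit. Without replicate 2, 11 were higher and 0 lower, beside 5.72% of all genes higher.

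Cell cycle lists did not all behave alike in ZPR1OE. In bulk samples fewer cells in a phase and less RNA per cell cannot be told apart. Of 20 G1/S genes 19 were called lower in the aim29 deletion (median −0.39), beside 12.7% of all genes. In ZPR1OE 8 were called higher than in the deletion, beside 0.504% of all genes, and the list median against WT was −0.02. CLB5, an S-phase cyclin, was at 50.4, 47.4 and 47.0 CPM in ZPR1OE, 41.2, 41.0 and 42.5 CPM in the aim29 deletion and 54.2, 55.4 and 56.8 CPM in WT, which puts each ZPR1OE library between the other groups (−0.20 ± 0.07 against WT, adjusted p = 0.598). Histone genes were above WT in ZPR1OE in all 10 cases, with a median of 0.19 and library medians of 0.14, 0.20 and 0.29, while their median in the aim29 deletion was 0.01. Of these 10, 6 were higher at an unadjusted p under 0.05, beside 3.69% of all genes, and 0 were called against WT. The count was 8, 7 and 6 without replicates 1, 2 and 3, beside 6.18%, 5.72% and 4.72% of all genes. HHF2, of histone H4, was at 809, 755 and 877 CPM in ZPR1OE, 638, 627 and 643 CPM in the aim29 deletion and 655, 663 and 653 CPM in WT (0.31 ± 0.07, adjusted p = 0.505). It was called against the aim29 deletion (0.36 ± 0.07, adjusted p = 0.0413 by edgeR). Of 19 G2/M and late mitosis genes 15 were above WT in ZPR1OE and 4 below. Their median was 0.11, and it was 0.11 in the aim29 deletion too. At an unadjusted p under 0.05, 5 were higher and 0 lower, beside 3.69% of all genes higher, and 0 were called against WT. Leaving out replicate 1, 2 or 3 gave 8, 3 and 8 higher, beside 6.18%, 5.72% and 4.72% of all genes.

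Ribosome biogenesis factors were a little below WT in both strains without AIM29. All 75 had negative log2 fold changes in ZPR1OE against WT, with a median of −0.19. In the aim29 deletion 60 were called lower, beside 12.7% of all genes, and the list median was −0.16. In ZPR1OE 30 of 75 were lower at an unadjusted p under 0.05, beside 4.35% of all genes, and 0 were called. The count was 46, 42 and 20 without replicates 1, 2 and 3, beside 6.91%, 6.7% and 5.98% of all genes. The library medians were −0.10, −0.12 and −0.35 in replicates 1, 2 and 3, and without replicate 3 the list median was −0.11. RIO1, a kinase of late ribosome assembly, was at 115, 115 and 102 CPM in ZPR1OE, 123, 111 and 117 CPM in the aim29 deletion and 136, 136 and 141 CPM in WT (−0.32 ± 0.07, adjusted p = 0.433). No ZPR1OE library reached WT. Cytosolic ribosomal protein genes had medians of −0.01 for the large and −0.00 for the small subunit in ZPR1OE, beside 0.08 and 0.10 in the aim29 deletion.

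Phosphate-regulated genes were below WT in ZPR1OE in 17 of 19 cases, with a median of −0.26, beside −0.13 in the aim29 deletion. At an unadjusted p under 0.05, 11 were lower, beside 4.35% of all genes. The count was 11, 7 and 14 without replicates 1, 2 and 3, beside 6.91%, 6.7% and 5.98% of all genes. None were called in edgeR's fit of the 6 ZPR1OE and WT libraries. PHO11 was called lower by edgeR with all 9 samples in 1 fit and without ZPR1OE replicate 1. PHO89 was called lower without replicate 3. DESeq2 called PHO11 and PHM6 lower, the second of which was named after its values were seen. PHO11, a secreted acid phosphatase, averaged 116 ± 23.4 CPM in ZPR1OE (SD, n = 3) and was at 143, 115 and 125 CPM in the aim29 deletion and 201, 185 and 204 CPM in WT. Its log2 fold change over WT was −0.76 ± 0.13 with an adjusted p of 0.207. Of its 50-base windows 11.7% are unique. PHO89, a sodium-driven phosphate transporter, was at 122, 97.2 and 46.4 CPM in ZPR1OE, 225, 179 and 211 CPM in the aim29 deletion and 193, 172 and 211 CPM in WT (−1.12 ± 0.29, adjusted p = 0.598). Every ZPR1OE library was below all other libraries for PHO89, with replicate 3 the lowest, whereas for PHO11 both strains without AIM29 were below WT. Of 21 hexose transporter and glucose control genes 19 were above 0 in ZPR1OE, with library medians of 0.14, 0.17 and 0.16, and 5 were higher at an unadjusted p under 0.05, beside 3.69% of all genes. Without replicate 3, 8 were higher, beside 4.72% of all genes, while the list median was 0.09 instead of 0.19. SNF3, a glucose sensor of the plasma membrane, was at 27.8, 25.5 and 33.4 CPM in ZPR1OE, 27.1, 28.4 and 28.2 CPM in the aim29 deletion and 20.3, 22.0 and 21.4 CPM in WT, with no overlap with WT (0.44 ± 0.11, adjusted p = 0.598).

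**Figure D4:**
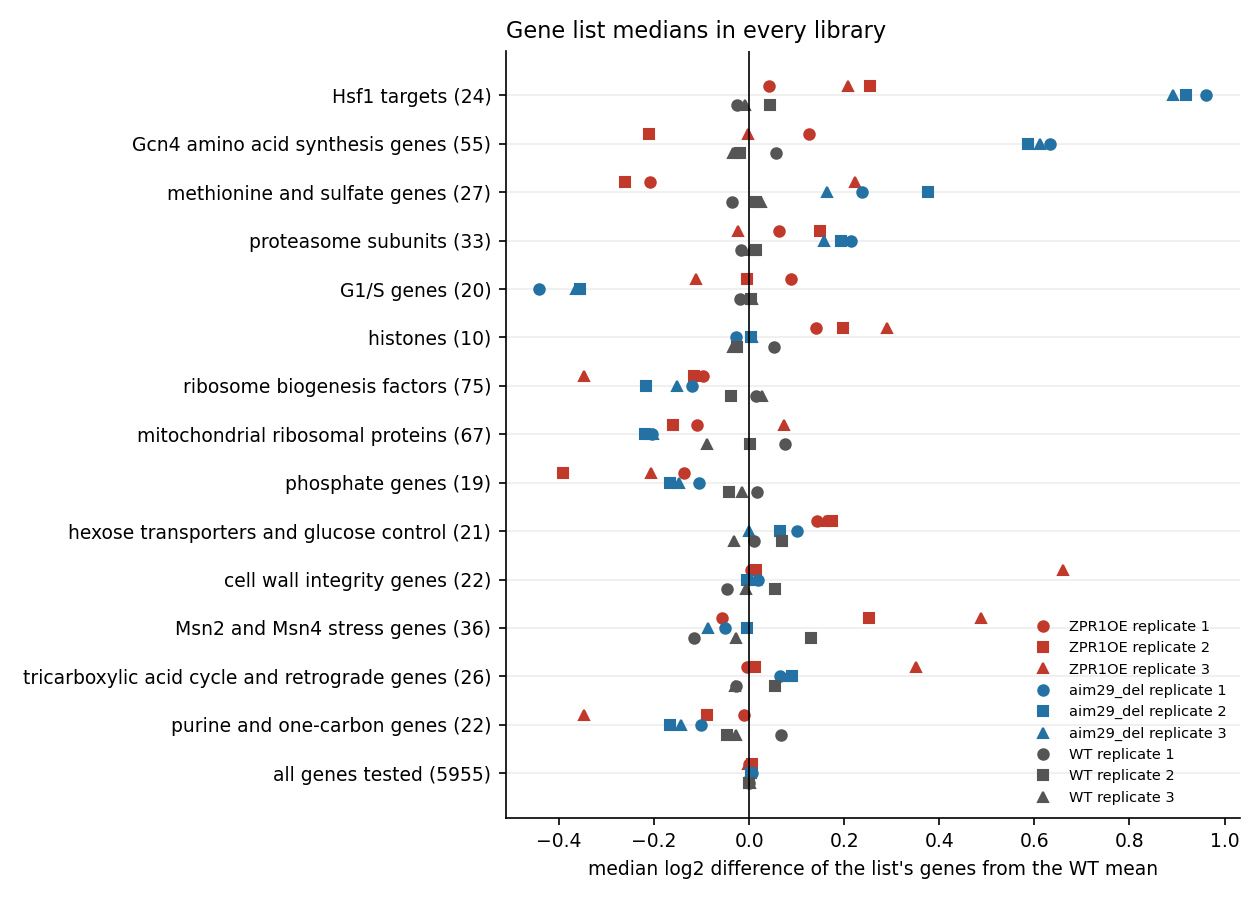
Median log2 difference from the WT mean over the genes of each list (number of genes tested in brackets), for every library of ZPR1OE (red), the aim29 deletion (blue) and WT (grey), with replicate 1 as circles, 2 as squares and 3 as triangles. ZPR1OE lies near WT for Hsf1, Gcn4 and G1/S genes, where the aim29 deletion has medians of 0.93, 0.60 and −0.39, and ZPR1OE replicate 3 stands apart for cell wall and purine genes.

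The ZPR1OE libraries differed among themselves more than those of the other groups did. Over the 3222 genes whose mean level reached 50 CPM, the SD of the log2 difference from the WT mean was 0.150, 0.181 and 0.300 in ZPR1OE replicates 1, 2 and 3, and 0.219 to 0.235 in the aim29 deletion libraries. Replicates 1 and 2 were thus closer to WT than any aim29 deletion library, and replicate 3 was farther. At least 2-fold above the WT mean were 2, 1 and 25 genes in replicates 1, 2 and 3, and at least 2-fold below it were 1, 3 and 8. Set against the mean of the other ZPR1OE libraries, 8, 14 and 35 genes differed at least 2-fold. Of these, 6 and 13 were lower in replicates 1 and 2, while in replicate 3 30 were higher and 5 lower. PIR3 was among the low genes of replicates 1 and 2 and was highest in replicate 3. High values in replicate 3 thus also enter the counts of the other replicates.

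Replicate 3 was high in cell wall genes. The cell wall mannoprotein gene CWP1 was at 139, 201 and 698 CPM in ZPR1OE, 161, 189.9 and 174 CPM in the aim29 deletion and 187, 202 and 178 CPM in WT. PIR3, which encodes a wall protein cross-linked to glucan, was at 35.2, 39.0 and 255 CPM in ZPR1OE, 40.0, 37.9 and 35.8 CPM in the aim29 deletion and 63.4, 69.7 and 63.4 CPM in WT. In replicate 3 both exceeded all other libraries, while PIR3 of replicates 1 and 2 lay with the aim29 deletion below WT. Over 22 cell wall integrity genes the library medians were 0.00, 0.02 and 0.66, and the list median of 0.27 was 0.01 without replicate 3. For 36 targets of Msn2 and Msn4, the activators of the general stress response, they were −0.06, 0.25 and 0.49, with a list median of 0.27, or 0.10 without replicate 3. At an unadjusted p under 0.05, 6 of the 36 were higher, beside 3.69% of all genes, and 0 were called. The count was 19, 9 and 3 without replicates 1, 2 and 3, beside 6.18%, 5.72% and 4.72% of all genes. On this list all 3 ZPR1OE libraries lay apart from each other. HSP12, a membrane stabiliser of stressed cells, ran in the same order, at 25.8, 57.9 and 116 CPM in ZPR1OE, against 39.0, 59.1 and 42.7 CPM in WT. TPO2, a polyamine exporter gene with 58.7% unique windows, was at 31.8, 30.6 and 130.0 CPM in ZPR1OE and 52.8, 44.8 and 37.7 CPM in WT.

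Other genes were low in replicate 3. The serine and threonine deaminase gene CHA1 was at 290.3, 339.6 and 143 CPM in ZPR1OE, 187, 175 and 178 CPM in the aim29 deletion and 303, 265 and 279.9 CPM in WT. ADE17, of purine synthesis, was at 495, 448 and 234 CPM in ZPR1OE, 290.1, 285 and 273 CPM in the aim29 deletion and 624, 519 and 528 CPM in WT. Replicate 3 was below all other libraries for both, and the other ZPR1OE libraries lay above the aim29 deletion. The purine and one-carbon list had library medians of −0.01, −0.09 and −0.35. Methionine and sulfate genes ran against this pattern, with library medians of −0.21, −0.26 and 0.22. Without replicate 3, 13 of these 27 genes were lower than WT at an unadjusted p under 0.05 and 0 higher, where 5.98% of all genes were lower. With all libraries 3 were lower, where 4.35% of all genes were. The list median was −0.22 without replicate 3 and −0.08 with it. In the aim29 deletion 15 of them were called higher, beside 14.1% of all genes, and the list median was 0.19.

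Replicates 1 and 2 had fewer genes of their own. Replicate 1 was high in ARG1 and in ARG56, also of arginine synthesis, which was at 214, 93.4 and 106 CPM in ZPR1OE and 153, 126 and 117 CPM in WT. Replicate 2 was high in ROX1, a repressor of genes for low oxygen, at 31.0, 70.0 and 32.0 CPM in ZPR1OE, 49.3, 62.7 and 55.6 CPM in the aim29 deletion and 69.7, 59.1 and 68.4 CPM in WT. For ROX1 replicate 2 lay at the top of the WT values, and the other ZPR1OE libraries were below every library of both other groups. Without replicate 2 ROX1 was called. The sterol desaturase gene ERG5 was at 216, 369 and 167 CPM in ZPR1OE and 332, 306 and 366 CPM in WT, and again replicates 1 and 3 were below WT. Replicate 2 was low in HMO1, an HMG-box protein of ribosomal gene promoters, at 306, 129 and 255 CPM in ZPR1OE and 261, 231 and 229 CPM in WT. ZPR1 itself was lowest in replicate 2, at 4856 CPM.

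**Figure D5:**
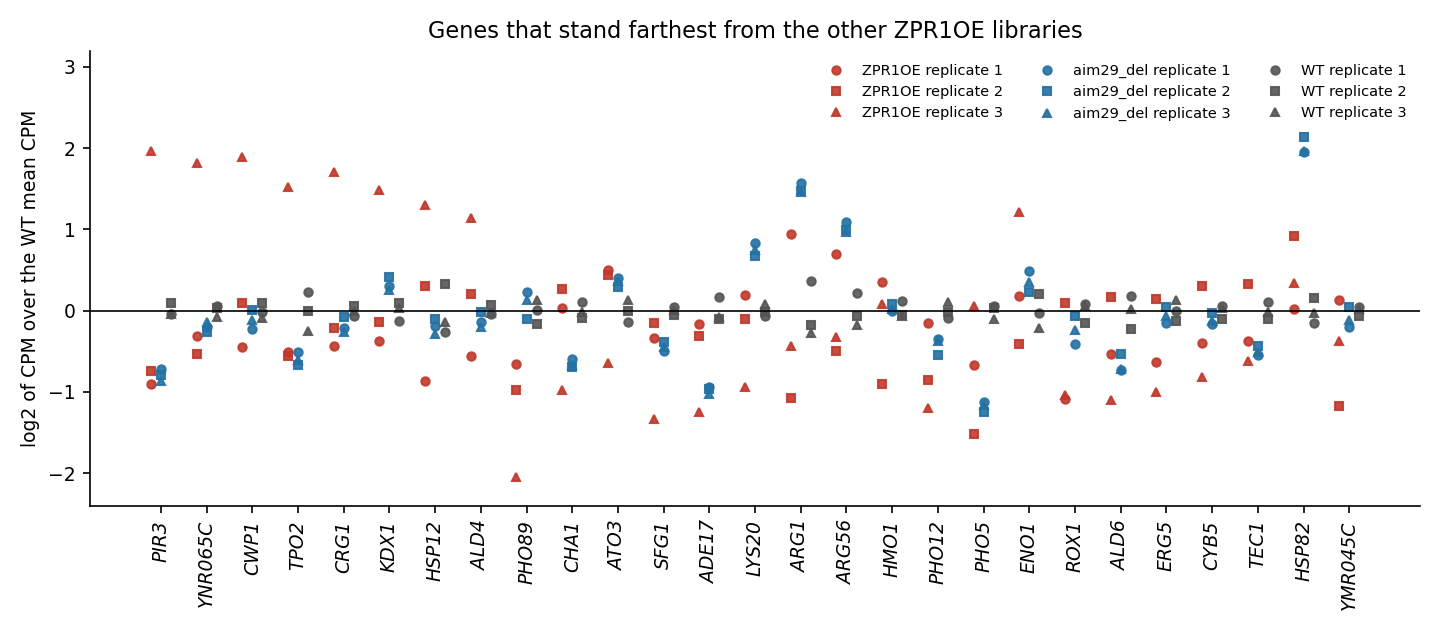
Log2 of CPM over the WT mean CPM for the genes that stand farthest from the other ZPR1OE libraries, in every library of ZPR1OE (red), the aim29 deletion (blue) and WT (grey), with replicate 1 as circles, 2 as squares and 3 as triangles. The genes on the left are high in ZPR1OE replicate 3 alone, such as CWP1 at 698 CPM and PIR3 at 255 CPM.

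Without replicate 3, 5 genes were called higher and 6 lower, all 4 genes called with every library among them. The added calls were MTH1 and CIT2 (higher) and YJR029W, PHO89, PIR3, GIT1 and SEO1 (lower). GIT1, a transporter of glycerophosphoinositol, was at 25.2, 24.3 and 72.7 CPM in ZPR1OE, 21.0, 23.1 and 24.0 CPM in the aim29 deletion and 57.6, 43.6 and 45.1 CPM in WT. SEO1, a putative permease that was named after its values were seen, was at 6.78, 5.62 and 11.8 CPM in ZPR1OE, 12.2, 11.0 and 12.2 CPM in the aim29 deletion and 11.4, 13.2 and 12.7 CPM in WT. For GIT1 and PIR3, replicates 1 and 2 were at the level of the aim29 deletion; for SEO1 they were below both other groups.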

How the data were processed

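RNA-seq gene counts of 9 yeast libraries were used as deposited by the authors. The submitters' processing notes name FastQC 0.11.5, STAR 2.7.0, DESeq2 1.34.0 and build R64; the counting tool, its strand setting and its treatment of reads with several matches were not given in these sources. Of 7127 features, 6047 were matched to RefSeq by locus tag and 41 by symbol, and 393 had 0 counts in all samples. Genes passing edgeR's filterByExpr were tested in R 4.3.3 with edgeR 4.0.16 (quasi-likelihood test, TMM factors, Benjamini-Hochberg adjusted p under 0.05) on the 6 ZPR1OE and WT libraries, without covariates, with 4 residual degrees of freedom. The other comparisons were fitted alike. CPM used TMM factors over all 9 libraries. SE is the size of the log2 fold change over the root of F. Genes were named for the engineered loci, by call, by rank within lists, by a 2-fold change in the aim29 deletion, or by distance of 1 ZPR1OE library from the others. Members and lists were chosen with earlier results of these data known. Alternatives used limma 3.58.1 and DESeq2 1.42.0. On simulated counts the test recovered 74 of 100 genes altered by 1.5-fold and 100 of 100 altered by 2-fold for ZPR1OE against WT, with 4 false calls among 178 (5959 genes). The simulation gave all genes of a group the same spread, had no library that stood apart and altered only genes of at least 10 CPM. It therefore does not give the share found in the real data, where MTH1, SPO24 and PHO89 differed by at least 2-fold and were not called. Uniqueness is the share of 50-base windows found once in the genome. Intervals on counts cover counting error only.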

Additional observations from a re-analysis of the deposited data

How the results depend on the processing

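The 3 genes called higher and 1 lower in ZPR1OE were also the count with RLE factors, without composition factors, without a low-count filter, with limma-voom and in a test against a fold change of 1.2. DESeq2 called 15 higher and 8 lower, limma-voom with sample quality weights 7 and 2, and all 9 samples in 1 fit 7 and 4. Requiring 100 counts in 3 samples left 2 higher, without tK(UUU)K, and 1 lower. Leaving out 1 library at a time gave 1 to 5 genes higher and 1 to 6 lower. Genes that stayed higher numbered 5 in the 9-sample fit and 8 by DESeq2, and those that stayed lower 3 and 5; leaving out 1 ZPR1OE library gave 3 to 4 and 2 to 4. Genes that became higher numbered 1 in the 9-sample fit and 4 by DESeq2, and 0 to 1 on leaving out a library; those that became lower numbered 1 and 1, and 0 to 2. With the replicate number as a block 3 were higher and 1 lower. ZPR1OE and WT libraries with the same number correlated at 0.0802, −0.0400 and −0.112 in their deviations from the group means. Those with different numbers correlated at −0.143 to 0.133, so the same-number values did not stand out. The aim29 deletion was not checked, and so few libraries cannot decide whether the numbers pair the samples. ECM4 was at −0.19 and SIS2 at 0.073 (log2, ZPR1OE over WT) with quality weights. Leaving out 1 library moved ECM4 between −0.36 and 0.44, SIS2 between −0.14 and 0.087 and ARO5 between −0.046 and 0.45. The cause of these shifts was not tested. Depth limits features at or below 3 counts, such as tK(UUU)K in WT. Counts of list members at an unadjusted p without each ZPR1OE library were added after seeing the data.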
